A study of Homo sapiens with 6 samples.

Results

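ATF4, the transcription factor that carries the integrated stress response to the nucleus, and 32 genes of its amino acid and stress programme were followed in MOLM-13 cells treated with UC-764864. The 33 genes were chosen by symbol and leave out the tRNA synthetases. All 33 have a row among the 56638 rows of the deposited table, and all 33 passed the filter on low counts that left 13490 genes for testing. MOLM-13 was established from a patient with monocytic acute myeloid leukaemia, and every library comes from this 1 line. The treated group holds 3 libraries (UDI0051, UDI0052, UDI0053) of cells given 2 µM UC-764864, which the series title calls an inhibitor of the ubiquitin-conjugating enzyme UBE2N. The comparison group holds 3 libraries (UDI0054, UDI0055, UDI0056) of cells given DMSO, the solvent. Cells of both groups grew in the same serum-containing medium and were collected after 24 h.

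The integrated stress response begins with kinases that sense a shortage of amino acids, unfolded protein in the endoplasmic reticulum, viral RNA or heme deficiency. Each of them phosphorylates the initiation factor eIF2, which lowers protein synthesis in general and favours translation of ATF4 from its mRNA through short upstream reading frames. ATF4 protein then pairs with other leucine zipper proteins and raises genes for amino acid synthesis, uptake and tRNA charging, along with feedback inhibitors and, under lasting stress, death-promoting genes. Because ATF4 is controlled largely at translation, its mRNA level does not report its protein level. Leukaemia cells draw on this programme to make serine, glycine and asparagine and to take up glutamine and leucine.

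Total counts were 17073654 to 25014437 in UC-764864 libraries and 16136156 to 24511499 in DMSO libraries. Levels are CPM (counts scaled to a common library size with TMM factors), and a count of 3 corresponded to 0.123 to 0.198 CPM. UDI0055 has 3799 rows at 0 in 2 unbroken runs of the table, which were treated as missing. None of the 33 genes lies there. Genes of at least 60% GC took 8.47% of counts in UDI0052 and 8.76% in UDI0056, against 10.4% to 12.04% in the others. Of 12 myeloid markers, CD14 stood at 0.198 to 0.474 CPM, near the floor, and of the 11 tested LYZ rose and CSF1R, ITGAM and HOXA9 fell. The myeloid list summed to 6554 to 7578 CPM in UC-764864 libraries and 4362 to 4696 CPM in DMSO libraries, most of it LYZ, which encodes lysozyme. Among lymphoid markers 1 of 3 tested fell, CD3D (CD3G, CD2 and MS4A1 had 0 counts). CD3D had only 7 to 12 counts in UC-764864 libraries and 18 to 26 in DMSO libraries. The list of 8 summed to 32.6 to 45.3 CPM in UC-764864 libraries and 49.1 to 56.8 CPM in DMSO libraries. Most of that was NKG7, at 31.4 to 43.6 CPM in UC-764864 libraries and 46.9 to 54.9 CPM in DMSO libraries. Erythroid and megakaryocytic markers summed to under 1 CPM in each library. Stromal and epithelial markers summed to 18.8 to 20.4 CPM in UC-764864 libraries and 19.1 to 22.8 CPM in DMSO libraries, most of it KRT18. Of 4 tested 1 was lower, PDGFRB, on 7 to 14 counts in UC-764864 libraries and 23 to 45 in DMSO libraries. Beside these marker calls, 8.13% of all genes were called lower and 5.11% higher. The part of these marker differences in the results below was not tested. In bulk RNA, a change in the share of some cells and a change in RNA per cell cannot be told apart.

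ATF4 pairs bind a short element, often called the C/EBP-ATF response element, whose core TGATGNAA was searched on both strands of RefSeq start windows (GRCh38.p14; 250 bases before to 50 after a start). Windows were found for 28 of the 33 genes, all but SHMT2, NUPR1, GPT2, ALDH1L2 and PSPH. In 9 of these 28 at least 1 window held the core, against 4.46% of all 27305 genes with windows. Counted by window it was 9 of 46, against 3.62% of all 35116 windows. The members were chosen as ATF4 pathway genes, so these shares are no independent evidence. The stretches are shown because they place the binding core of the factor in the genes whose levels follow. Each is printed on the gene's own strand, with the 8 bases of the core, or of its reverse complement, in capitals.
ATF3 (chr1:212565206-212565233, + strand): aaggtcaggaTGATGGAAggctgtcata
ASNS (chr7:97872459-97872486, - strand): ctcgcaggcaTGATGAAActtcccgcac
CHAC1 (chr15:40953252-40953279, + strand): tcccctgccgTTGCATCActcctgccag
CEBPG (chr19:33374061-33374088, + strand): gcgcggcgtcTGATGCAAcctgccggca
JDP2 (chr14:75427996-75428023, + strand): tagccggggcTGATGCAAcccgtcccgc
SLC1A4 (chr2:64989382-64989409, + strand): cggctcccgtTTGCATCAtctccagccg
SLC1A5 (chr19:46784894-46784921, - strand): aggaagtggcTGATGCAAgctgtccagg
SLC3A2 (chr11:62881726-62881748, + strand): gcaggactccTTACATCAgctcc
SLC7A1 (chr13:29595664-29595691, - strand): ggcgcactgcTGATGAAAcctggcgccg

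In ASNS, whose promoter element is a textbook site of the amino acid response, the core lay at position −68 relative to the start, and in CEBPG at −42. The 9 genes had log2 fold changes from −0.73 to 0.37, 4 above 0 and 5 below, and 0 of them passed the test. The genes that did pass are TRIB3, SLC38A2 and STC2. Their windows do not hold the core letters, which says nothing about binding outside these windows. Their sequence around the start is shown for comparison, 60 bases before it in lower case and the first 10 transcribed bases in capitals, taking the first of 3 listed starts for TRIB3.
TRIB3 (chr20:381235-381304, + strand): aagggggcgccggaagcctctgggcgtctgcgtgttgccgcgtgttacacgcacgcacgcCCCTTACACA
SLC38A2 (chr12:46372764-46372833, - strand): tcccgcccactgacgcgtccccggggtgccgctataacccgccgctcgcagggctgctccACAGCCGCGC
STC2 (chr5:173328405-173328474, - strand): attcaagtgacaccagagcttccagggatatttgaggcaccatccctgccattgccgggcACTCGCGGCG

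Most of the ATF4 programme did not pass the test of a change in cells given UC-764864. TRIB3, a pseudokinase that restrains ATF4, SLC38A2, a transporter of small neutral amino acids, and STC2, a secreted glycoprotein, were 1.54-, 1.66- and 1.52-fold lower, and no gene of the 33 rose. The counts were 3 lower and 0 higher (edgeR quasi-likelihood test, Benjamini-Hochberg over 13490 genes, adjusted p under 0.05). Among all genes 8.13% were called lower and 5.11% higher, so the 9.09% of members called lower lies near the background. The other 30 genes did not pass. At an unadjusted p under 0.05 there were 9 lower and 3 higher of the 33, against 16.6% lower and 14.9% higher of all genes. The median log2 fold change (UC-764864 over DMSO) was −0.12 for the 33 genes and 0.013 for all genes.

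**Figure D1:**
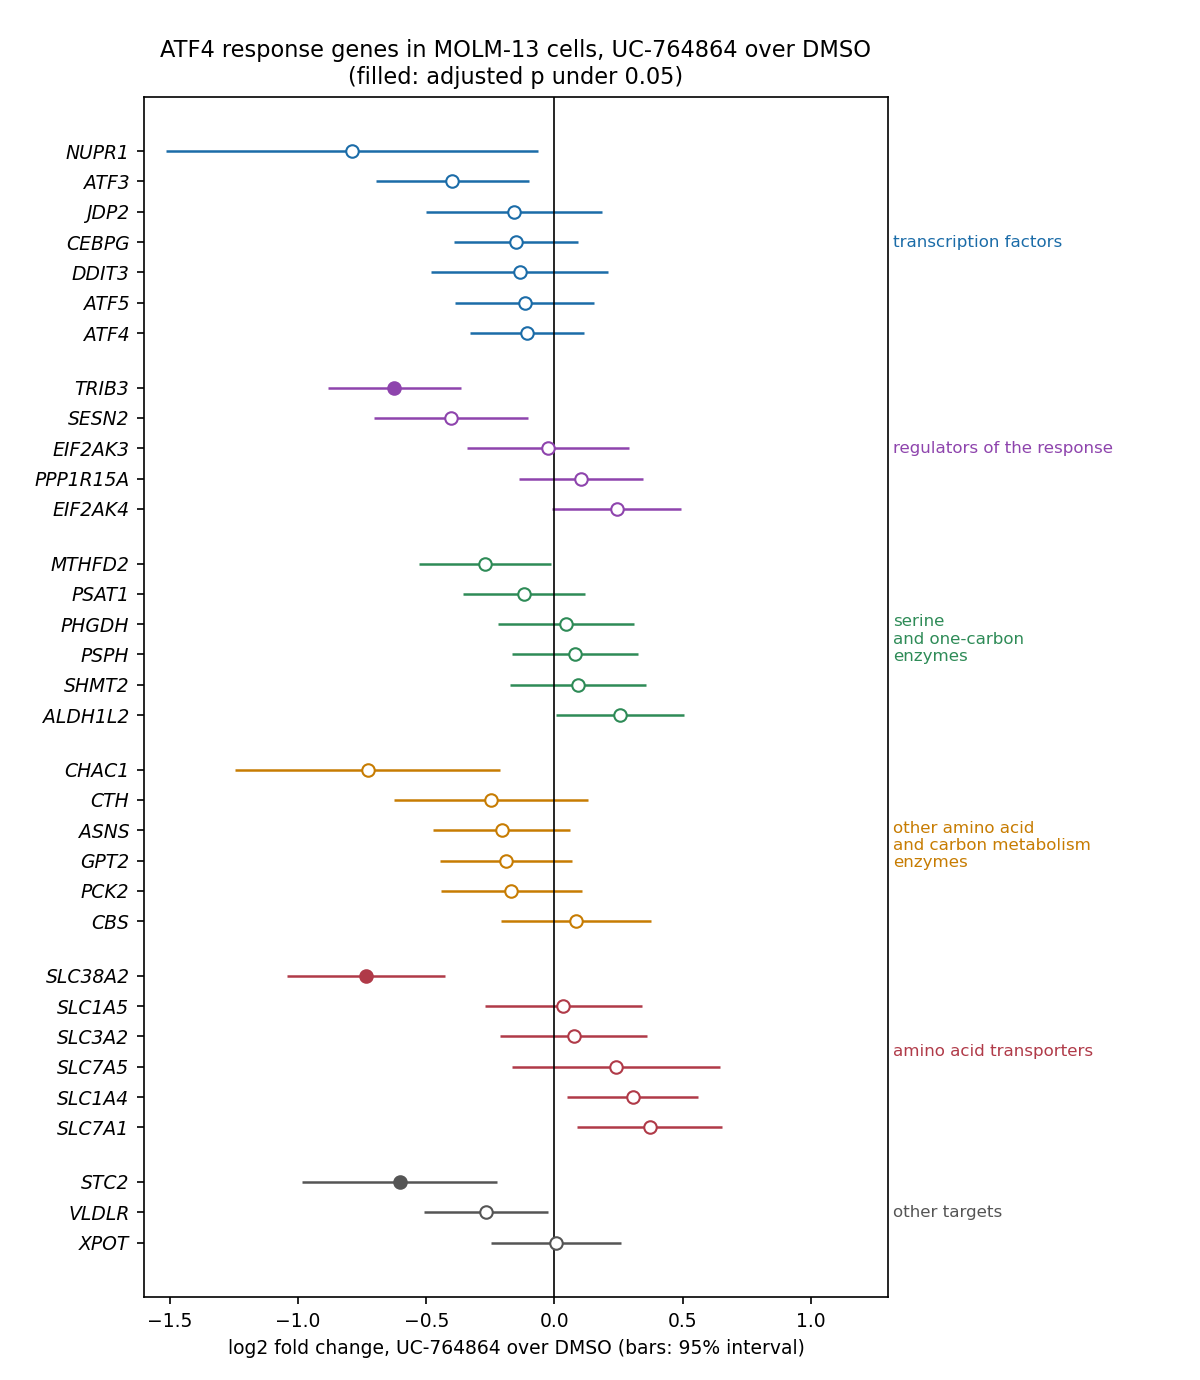
Log2 fold change of each of the 33 genes, UC-764864 over DMSO, by role group, with 95% intervals from the fit (n = 3 libraries per group) and filled points for adjusted p under 0.05. TRIB3, SLC38A2 and STC2 are filled and lie left of 0, and the upper end that lies farthest right is that of SLC7A1, at 0.65.

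The intervals limit how large a missed change could be. The 95% interval reached a median of 0.27 to either side of the log2 fold change, and 0.73 for NUPR1, the widest. The highest upper bound of any member was 0.65, for SLC7A1, so the interval of no member reached a doubling in UC-764864 cells. Lower bounds beyond a halving were found for NUPR1 (−1.51), CHAC1 (−1.24) and SLC38A2 (−1.04). Whether the 3 libraries of a treatment are separate cultures is not stated in the labels, so intervals and p-values cover the spread among these libraries, which may be technical.

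Of the 7 transcription factor genes, 0 passed, and all 7 had log2 fold changes below 0, from −0.79 to −0.11. Among all genes tested, 48.7% lay below 0. ATF4 mRNA stood at 571, 539 and 584 CPM in UC-764864 libraries and at 638, 586 and 601 CPM in DMSO libraries. The groups did not overlap, although UDI0053 and UDI0055 nearly met, and the log2 fold change was −0.11 ± 0.10 (SE, adjusted p = 0.498, edgeR). Per kilobase of all annotated exons, ATF4 had the highest level of the 33 genes, at 225 CPM per kb in UC-764864 cells and 242 CPM per kb in DMSO cells.

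ATF3, a repressor induced by ATF4 under many stresses, had the smallest p of the factors. It stood at 12.4, 14.2 and 11.8 CPM in UC-764864 libraries and at 16.1, 16.1 and 18.6 CPM in DMSO libraries, with no overlap. Its log2 fold change of −0.40 ± 0.14 did not pass (adjusted p = 0.0724, edgeR). NUPR1, a small stress-induced chromatin protein, had 14 to 21 counts in UC-764864 libraries and 25 to 40 in DMSO libraries, and its −0.79 ± 0.33 did not pass (adjusted p = 0.13). It passed as lower without UDI0055 (−1.05, adjusted p = 0.032). DDIT3, which encodes the death-promoting factor CHOP, averaged 13.8 ± 1.07 CPM in UC-764864 cells and 15.2 ± 2.86 CPM in DMSO cells (SD, n = 3 each), and the groups overlapped. ATF5, a relative of ATF4 tied to mitochondrial stress, CEBPG, the common dimer partner of ATF4, and JDP2, a repressor related to ATF3, had log2 fold changes of −0.12, −0.15 and −0.16, each with overlapping groups. In GENCODE 29, 27.2% of the DDIT3 exon bases lie opposite exons of MARS and 21.2% of those of ATF5 opposite NUP62. The labels call the reads single stranded but whether counting used the strand is not given, so both values are uncertain. MARS itself rose (0.49, adjusted p = 0.0256).

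Of the 5 regulators of the response, TRIB3 fell and the other 4 did not pass. TRIB3 stood at 65.9, 58.3 and 73.2 CPM in UC-764864 libraries and at 102, 104 and 98.4 CPM in DMSO libraries. Every UC-764864 library lay well below every DMSO library. Its log2 fold change was −0.62 ± 0.12 (SE, adjusted p = 0.0103, edgeR), a level 1.54-fold lower. The threshold was missed in 1 of 13 alternatives, without UDI0051, where the log2 fold change was again −0.62 (adjusted p = 0.0545).

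SESN2, a stress-induced inhibitor of mTORC1, stood at 20.7, 15.7 and 19.0 CPM in UC-764864 libraries and at 24.8, 25.6 and 23.0 CPM in DMSO libraries. The groups did not overlap, but −0.40 ± 0.14 did not pass (adjusted p = 0.0701, edgeR). SESN2 passed as lower with DESeq2 (−0.42, adjusted p = 0.0363) and with library size only (−0.45, adjusted p = 0.0468). The kinases that start the response had values on either side of 0. EIF2AK4, which encodes the amino acid sensor GCN2, averaged 55.0 ± 3.43 CPM in UC-764864 cells and 46.5 ± 2.82 CPM in DMSO cells (SD, n = 3 each), without overlap and with an adjusted p of 0.174. EIF2AK3, which encodes the endoplasmic reticulum sensor PERK, averaged 18.5 ± 1.93 CPM in UC-764864 cells and 18.9 ± 2.61 CPM in DMSO cells. PPP1R15A, which encodes the feedback phosphatase subunit GADD34, had a log2 fold change of 0.10 with a 95% interval from −0.14 to 0.34.

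**Figure D2:**
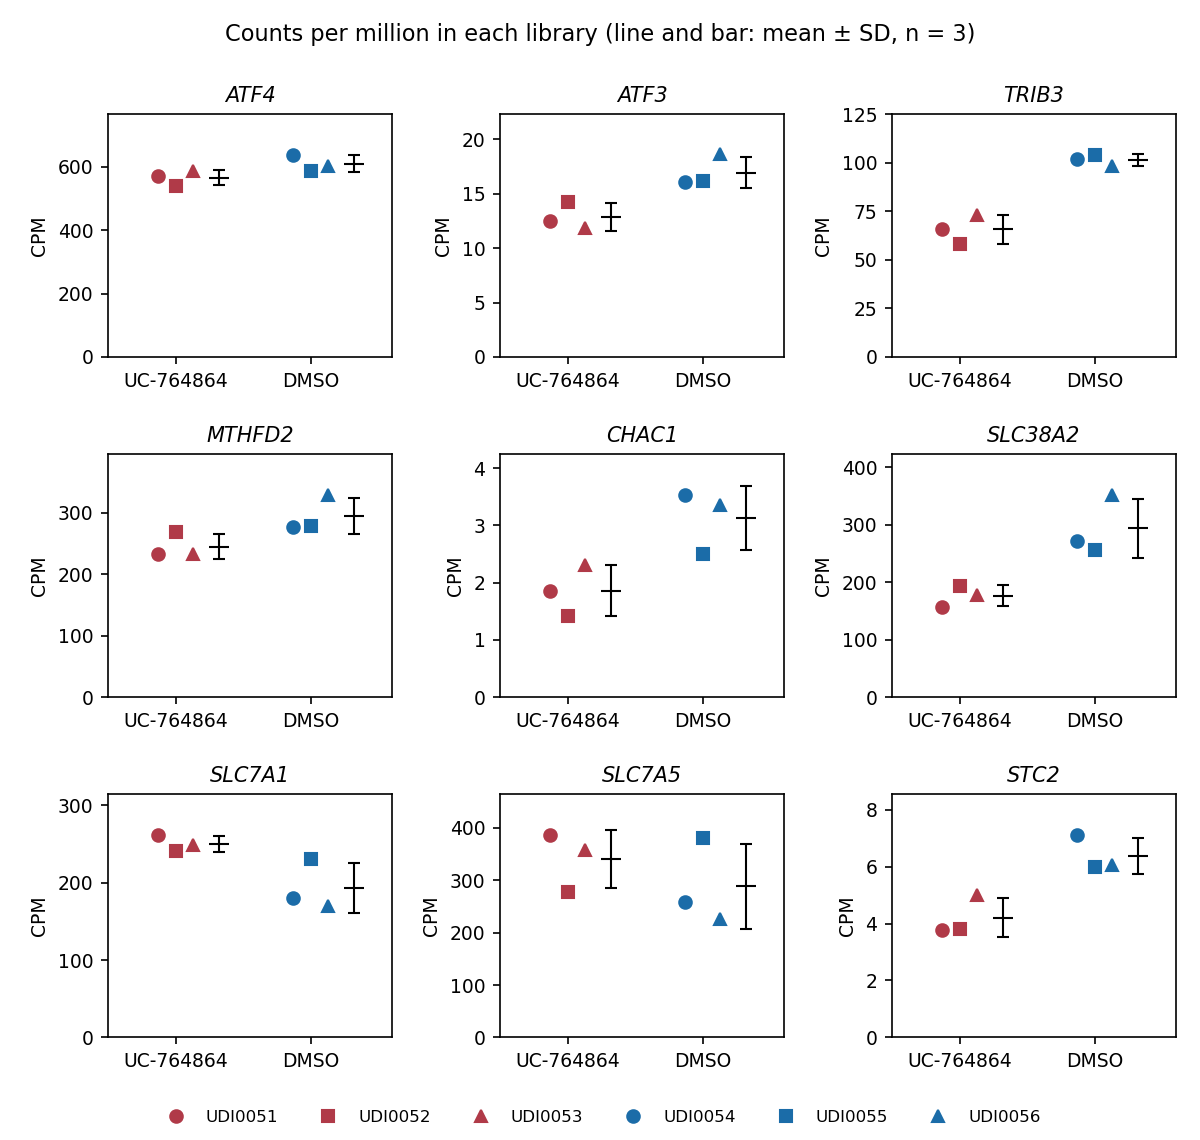
CPM of 9 genes in each library, UC-764864 left and DMSO right, each symbol 1 library, with mean ± SD (n = 3) beside the points and axes from 0. All genes drawn except SLC7A5 separate by group, ATF4 only narrowly, and of these only TRIB3, SLC38A2 and STC2 passed the test. The 9 genes are not a representative set. The groups overlapped for 20 of the 33 genes, and 36.1% of all genes had no overlap. In SLC7A5 the DMSO library UDI0055, at 380 CPM, lies among the UC-764864 libraries.

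Of the 6 serine and one-carbon enzymes, which make serine from a glycolytic intermediate and pass its carbon to folate, 0 passed. PHGDH, the first enzyme of serine synthesis, averaged 127 ± 9.59 CPM in UC-764864 cells and 123 ± 13.4 CPM in DMSO cells (SD, n = 3 each). PSAT1, the second step, averaged 131 ± 6.49 CPM in UC-764864 cells and 142 ± 8.94 CPM in DMSO cells. PSPH, the last step, averaged 45.7 ± 1.13 CPM in UC-764864 cells and 43.1 ± 2.48 CPM in DMSO cells. The 3 steps of this route thus overlapped between groups, with log2 fold changes of 0.043, −0.12 and 0.081.

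Mitochondrial folate enzymes split in sign. MTHFD2, which oxidises methylene-folate in mitochondria, stood at 232, 268 and 233 CPM in UC-764864 libraries and at 276, 279 and 329 CPM in DMSO libraries, without overlap. ALDH1L2, which releases formate carbon as carbon dioxide while making NADPH, stood at 51.7, 56.5 and 49.8 CPM in UC-764864 libraries and at 41.9, 45.1 and 45.3 CPM in DMSO libraries, also without overlap. Their log2 fold changes of −0.27 ± 0.12 and 0.26 ± 0.11 did not pass (adjusted p = 0.144 and 0.15, edgeR). SHMT2, the mitochondrial serine hydroxymethyltransferase, overlapped between groups, at 260 ± 19.4 CPM in UC-764864 cells and 244 ± 29.6 CPM in DMSO cells. In the same annotation 27.2% of MTHFD2 exon bases lie opposite SLC4A5, which had at most 1 count in a library. The PSPH value is uncertain, because its copy PSPHP1 holds counts equal to 36.8% of those of PSPH.

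Among the 6 other enzymes of amino acid and carbon metabolism, 0 passed, and 5 of the 6 log2 fold changes lay below 0, against 48.7% of all genes. CHAC1, a glutathione-degrading enzyme and a sensitive ATF4 target, stood at 1.85, 1.42 and 2.32 CPM in UC-764864 libraries and at 3.54, 2.495 and 3.36 CPM in DMSO libraries. The groups did not overlap, on 22 to 44 counts in UC-764864 libraries and 51 to 80 in DMSO libraries, and −0.73 ± 0.24 did not pass (adjusted p = 0.0621, edgeR). It passed as lower without UDI0055 (−0.88, adjusted p = 0.0244) and with no filter (−0.74, adjusted p = 0.0242). ASNS, the asparagine synthetase, averaged 49.7 ± 5.61 CPM in UC-764864 cells and 57.3 ± 3.23 CPM in DMSO cells, and the groups overlapped. GPT2, the mitochondrial alanine transaminase, and PCK2, the mitochondrial PEP carboxykinase, had log2 fold changes of −0.19 and −0.17. Of the transsulfuration pair that makes cysteine, CBS had 0.085 and CTH −0.25, each with overlapping groups.

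Amino acid transporters held the highest and one of the lowest values of the 33. SLC38A2 fell, while the other 5 transporters had log2 fold changes above 0 that did not pass. Of these, SLC1A5 lay below 0 with library size only and without UDI0052 and UDI0056 together. Both SLC1A5 and SLC3A2 lay below 0 with the GC trend removed. Leaving out 1 library, they reached −0.065 and −0.031 at the lowest. SLC38A2, the transporter also called SNAT2, stood at 157, 194 and 178 CPM in UC-764864 libraries and at 272, 257 and 352 CPM in DMSO libraries. The groups were well apart, with UDI0052 and UDI0056 the highest library of their groups. The log2 fold change was −0.73 ± 0.14 (SE, adjusted p = 0.0104, edgeR), a level 1.66-fold lower. SLC38A2 has the lowest GC content of the 33, at 38.8%, and with the GC trend of each library removed its log2 fold change was −0.41 (adjusted p = 0.000501). The threshold was missed without UDI0051 (−0.66, adjusted p = 0.0543) and with the rows at 0 kept as counts (−0.76, adjusted p = 0.0592).

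SLC7A1, a cationic transporter of arginine and lysine, stood at 262, 241 and 248 CPM in UC-764864 libraries and at 181, 230 and 169 CPM in DMSO libraries. SLC1A4, a transporter of serine and alanine, stood at 108, 105 and 104 CPM in UC-764864 libraries and at 81.6, 96.4 and 78.7 CPM in DMSO libraries. Both were higher in each UC-764864 library than in any DMSO library, and in both UDI0055 was the DMSO library nearest to the treated ones. Their log2 fold changes of 0.37 ± 0.13 and 0.30 ± 0.12 did not pass (adjusted p = 0.0777 and 0.0996, edgeR). Over 13 alternatives SLC7A1 ranged from 0.22 to 0.52 and passed in 2. SLC1A4 ranged from 0.155 to 0.40 and passed in 1.

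SLC7A5, the light chain of the leucine transporter LAT1, averaged 341 ± 56.1 CPM in UC-764864 cells and 288 ± 81.2 CPM in DMSO cells (SD, n = 3 each), with overlap. Its heavy chain SLC3A2 averaged 192 ± 19.8 CPM in UC-764864 cells and 182 ± 24.6 CPM in DMSO cells. SLC1A5, the glutamine transporter ASCT2, averaged 372 ± 37.1 CPM in UC-764864 cells and 363 ± 65.7 CPM in DMSO cells. Without UDI0055, 3 transporters passed as higher: SLC7A1 at 0.52 (adjusted p = 0.00912), SLC1A4 at 0.40 (adjusted p = 0.025) and SLC7A5 at 0.49 (adjusted p = 0.032). In that fit 1525 of 13680 genes were called higher, against 690 of 13490 with all libraries.

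Of the 3 remaining targets, STC2 fell. It stood at 3.79, 3.82 and 5.0 CPM in UC-764864 libraries and at 7.11, 5.97 and 6.06 CPM in DMSO libraries, on 59 to 95 counts in UC-764864 libraries and 92 to 161 in DMSO libraries. The groups did not overlap, and the log2 fold change was −0.60 ± 0.17 (SE, adjusted p = 0.0417, edgeR), a level 1.52-fold lower. The threshold was missed when UDI0051, UDI0052, UDI0053 or UDI0054 was left out (adjusted p from 0.0532 to 0.198), without UDI0052 and UDI0056 together (adjusted p = 0.0694) and with the rows at 0 kept as counts (adjusted p = 0.0762). VLDLR, a lipoprotein receptor, averaged 59.5 ± 3.34 CPM in UC-764864 cells and 71.5 ± 3.11 CPM in DMSO cells, without overlap, and did not pass (adjusted p = 0.126). XPOT, the exporter of tRNA from the nucleus, averaged 324 ± 33.3 CPM in UC-764864 cells and 323 ± 23.1 CPM in DMSO cells.

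The role groups differed in where their values lay, which is given as a description only. Median log2 fold changes were −0.15 for transcription factors, −0.025 for regulators, 0.062 for serine and one-carbon enzymes, −0.20 for other enzymes, 0.16 for transporters and −0.27 for the remaining targets. With the GC trend removed they were −0.29, 0.0044, −0.078, −0.24, 0.058 and −0.28, in the same order. Without UDI0056, regulators had 0.074, serine and one-carbon enzymes −0.017 and transporters 0.032, so several of these signs depend on the setting. Each median covers 3 to 7 genes, and the lower and upper quartiles of all genes were −0.27 and 0.23. In all, the groups of libraries did not overlap for 9 lower and 4 higher of the 33 genes, together 13 of 33, against 17% lower and 19% higher, together 36.1%, of all genes. The 4 higher ones were EIF2AK4, ALDH1L2, SLC7A1 and SLC1A4.

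**Figure D3:**
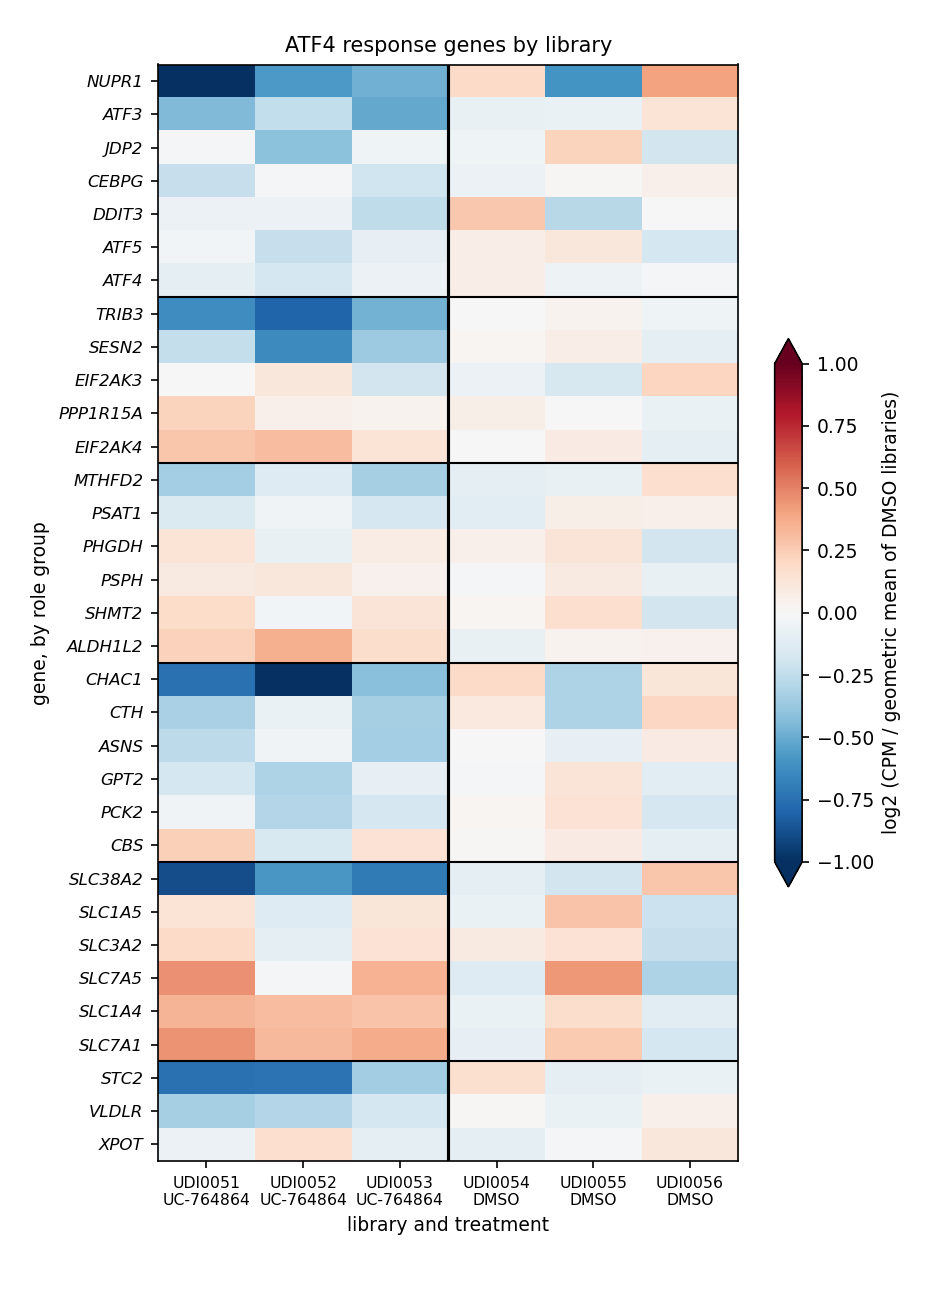
Log2 ratio of each gene's CPM to the geometric mean of the DMSO libraries, by library, UC-764864 left of the line and DMSO right, with role groups between the horizontal lines. TRIB3, SLC38A2 and STC2 are blue in each UC-764864 library, as are members that did not pass, ATF3, SESN2, MTHFD2, CHAC1 and VLDLR among them. For transporters the medians were 0.27, −0.056 and 0.21 in UDI0051, UDI0052 and UDI0053 and −0.078, 0.22 and −0.19 in UDI0054, UDI0055 and UDI0056.

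By library, the transporter medians of the 2 groups overlapped. UDI0052 of the UC-764864 group stood at −0.056, and UDI0055 of the DMSO group at 0.22. For transcription factors the UC-764864 libraries stood at −0.091, −0.23 and −0.20, below the DMSO libraries at 0.063, −0.054 and 0.0024. Other enzymes, at −0.22, −0.23 and −0.25 in UC-764864 libraries and 0.016, 0.0023 and −0.0063 in DMSO libraries, also separated. So did the remaining targets, at −0.33, −0.29 and −0.18 in UC-764864 libraries and 0.016, −0.069 and 0.054 in DMSO libraries. Medians of the regulators overlapped. Each gene's DMSO log2 ratios average 0 by construction. Serine and one-carbon enzymes stood at 0.12, −0.032 and 0.061 in UC-764864 libraries and at −0.041, 0.072 and −0.018 in DMSO libraries, so the groups overlapped.

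Levels per kilobase of exon placed SLC1A5 and SLC7A5 next to ATF4 in UC-764864 cells. The length used joins all exons that GENCODE 29 lists for a gene, such as 9217 bases for PHGDH and 5674 for NUPR1. It can exceed the length of the mRNA that the cells make, so the order depends in part on annotation. SLC1A5 stood at 112 CPM per kb in UC-764864 cells and 109 after DMSO, and SLC7A5 at 71.8 after UC-764864 and 60.8 after DMSO. PSAT1, SHMT2, MTHFD2, XPOT and PPP1R15A followed, between 41.2 and 59.9 CPM per kb in UC-764864 cells and between 38.3 and 65.1 after DMSO. At the low end, CHAC1 stood at 0.905 CPM per kb in UC-764864 cells and 1.52 after DMSO, STC2 at 0.686 after UC-764864 and 1.04 after DMSO, and NUPR1 at 0.163 after UC-764864 and 0.284 after DMSO. Of the 3 genes that fell, SLC38A2 stood at 26.7 CPM per kb in UC-764864 cells and 44.5 after DMSO. After DMSO it lay above XPOT, at 43.9, and PPP1R15A, at 38.3. TRIB3 stood at 19.2 after UC-764864 and 29.5 after DMSO.

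Other genes around ATF4 moved in both directions. In a list of 25 other reported ATF4 targets, 23 were tested, and 10 fell and 1 rose, against the 8.13% lower and 5.11% higher of all genes. Its median log2 fold change was −0.33. The 4 with the smallest p were TXNIP, an inhibitor of thioredoxin, DDIT4, an mTORC1 inhibitor also called REDD1, INHBE, an activin subunit, and SLC7A11, the cystine transporter. TXNIP averaged 195 ± 18.7 CPM in UC-764864 cells and 354 ± 40.4 CPM in DMSO cells (−0.86 ± 0.12, adjusted p = 0.00357, edgeR). DDIT4 stood at 38.6, 38.5 and 54.6 CPM in UC-764864 libraries and at 105, 73.8 and 93.8 CPM in DMSO libraries (−1.05 ± 0.17, adjusted p = 0.00588). SLC7A11 stood at 9.19, 8.93 and 9.16 CPM in UC-764864 libraries and at 16.6, 13.7 and 24.3 CPM in DMSO libraries (−0.99 ± 0.20, adjusted p = 0.0116). INHBE was low, at 0.407 ± 0.160 CPM in UC-764864 cells and 1.55 ± 0.317 CPM in DMSO cells (−1.95 ± 0.35, adjusted p = 0.00834).

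Several genes of that list also answer to other regulators, TXNIP to glucose-sensing factors, DDIT4, VEGFA and NDRG1 to hypoxia and BBC3 to p53. VEGFA, NDRG1 and BBC3, which also fell, are named here after their values were seen. The list was drawn up with results of these libraries known, so it is no independent evidence of direction. Leaving out 1 library, its count of falls ranged from 4 without UDI0051 to 11 without UDI0055, with 5 without UDI0054 and 6 without UDI0053. The count was 13 with the GC trend removed and 1 with the rows at 0 kept as counts. Of all genes, 278 of 13702 were lower without UDI0051 and 1729 of 13680 without UDI0055. Without UDI0054 it was 475 of 13614, and without UDI0053 460 of 13904. With the GC trend removed 16% of all genes were lower, and with the rows at 0 kept as counts 125 of 14027. The 1 gene that rose, named after its values were seen, was ALDH18A1, the first enzyme of proline synthesis, at 0.46 (adjusted p = 0.0386). The count of rises was 1 without UDI0055 and 0 without any other single library or with the rows at 0 kept as counts.

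**Figure D4:**
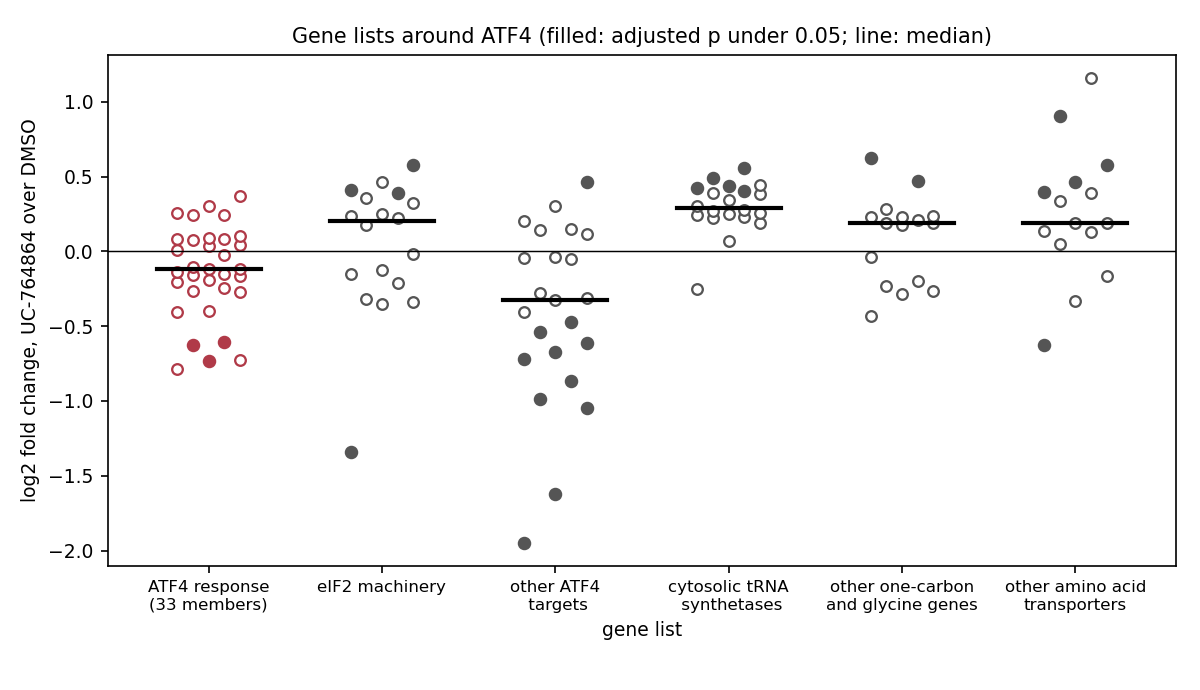
Log2 fold changes, UC-764864 over DMSO, of the 33 genes and of 5 lists of related genes, each point 1 tested gene, filled for adjusted p under 0.05, with the median as a line. Filled points of the other ATF4 targets lie mostly below 0, and all filled points of the tRNA synthetases lie above 0.

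Cytosolic tRNA synthetases, which charge tRNAs and are themselves ATF4 targets in part, had 5 of 20 higher and 0 lower, against 5.11% higher and 8.13% lower of all genes, with a median of 0.29. YARS averaged 215 ± 13.6 CPM in UC-764864 cells and 146 ± 18.9 CPM in DMSO cells (0.55 ± 0.12, adjusted p = 0.0172, edgeR). MARS, HARS and GARS, the enzymes for methionine, histidine and glycine, rose by 0.49, 0.44 and 0.42 on the log2 scale (edgeR adjusted p of 0.0256, 0.03 and 0.039), and LARS, the leucine enzyme, named after its values were seen, was the other that rose. The count was 0 without UDI0051 or UDI0054, 1 without UDI0053, 2 without UDI0052, 3 without UDI0056 and 11 without UDI0055. Of all genes, 62 of 13702 were higher without UDI0051, 94 of 13614 without UDI0054 and 166 of 13904 without UDI0053. The same counts were 295 of 13938 without UDI0052, 512 of 13786 without UDI0056 and 1525 of 13680 without UDI0055. The count of synthetases called higher was 14 with the GC trend removed, 8 with no filter and 3 with library size only. It was 3 without UDI0052 and UDI0056 together, and 0 with the rows at 0 kept as counts. With the GC trend removed 17% of all genes were higher, with no filter 827 of 24326 and with library size only 508 of 13490. Without UDI0052 and UDI0056 together 559 of 13724 were higher, and with the rows at 0 kept as counts 22 of 14027.

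Machinery of eIF2 had 3 of 18 higher and 1 lower, against 5.11% higher and 8.13% lower of all genes, with a median of 0.20. EIF2B4, EIF2B5 and EIF2B3, subunits of the exchange factor that recharges eIF2, rose by 0.58 ± 0.12, 0.39 ± 0.11 and 0.41 ± 0.12 on the log2 scale (adjusted p = 0.0159, 0.042 and 0.0438, edgeR). PPP1CB, a catalytic subunit of protein phosphatase 1, fell to 54.0 ± 7.10 CPM in UC-764864 cells, against 137 ± 44.0 CPM in DMSO cells (−1.34 ± 0.20, adjusted p = 0.00391). The count of rises in this list was 0 without UDI0051, UDI0053 or UDI0054, 1 without UDI0052 or UDI0056 and 5 without UDI0055, and with rows at 0 kept as counts no gene of it was called. With the GC trend removed 7 were higher and 3 lower, with DESeq2 5 higher and 1 lower, with library size only 1 higher and 1 lower, and without UDI0052 and UDI0056 together 1 higher and 3 lower. Of all genes, 17% were higher and 16% lower with the GC trend removed, and 856 of 13489 were higher and 1379 lower with DESeq2. With library size only 508 of 13490 were higher and 1271 lower, and without UDI0052 and UDI0056 together 559 of 13724 and 1233. For leaving out 1 library, the all-gene counts called higher are given above with the synthetases.

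One-carbon and glycine genes outside the 33 had 2 of 16 higher and 0 lower, against 5.11% higher and 8.13% lower of all genes, with a median of 0.19. MTHFD1, the cytosolic folate enzyme, averaged 255 ± 12.6 CPM in UC-764864 cells and 165 ± 26.1 CPM in DMSO cells (0.63 ± 0.13, adjusted p = 0.013, edgeR), and MTHFD1L, a mitochondrial formate-producing enzyme, rose by 0.47 ± 0.12 (adjusted p = 0.028). Other amino acid transporters had 4 of 15 higher and 1 lower, beside the same shares of all genes, also with a median of 0.19. SLC1A3, a glutamate transporter, SLC43A3, a purine base transporter related to amino acid carriers, and SLC7A6, a cationic and neutral exchanger, rose by 0.90, 0.57 and 0.40, as did the proton-coupled SLC36A1, named after its values were seen, by 0.46, and SLC36A4 fell by 0.63 (adjusted p = 0.0179, 0.02, 0.0414, 0.0445 and 0.0368). Rises in the one-carbon list numbered 0 without UDI0051 or UDI0054 and 1 without UDI0052 or UDI0053. With the GC trend removed 4 of that list were higher and 1 lower and its median was 0.068, and with the rows at 0 kept as counts 0 were called. Rises among these transporters numbered 0 without UDI0051 or UDI0054, 1 without UDI0052 or UDI0053, 2 without UDI0056 and 6 without UDI0055, and the fall was not called without UDI0051, UDI0053 or UDI0056. With the GC trend removed 6 of these transporters were higher and 0 lower, with library size only or without UDI0052 and UDI0056 together 2 were higher and 1 lower, and with the rows at 0 kept as counts 0 were called. Of all genes, 17% were higher and 16% lower with the GC trend removed. For the other settings, the all-gene counts called higher are given above with the synthetases.

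The count of members past the threshold depended on how the GC differences between libraries were handled. With each library's GC trend removed, 14 of the 33 genes were called lower and 2 higher, against 16% lower and 17% higher of the 12186 genes with a GC value. The 11 added as lower were ATF4, ATF3, JDP2, NUPR1, SESN2, MTHFD2, ASNS, CHAC1, GPT2, PCK2 and VLDLR, and the 2 higher were ALDH1L2 and SLC7A1. ATF4 had −0.25 (adjusted p = 0.0271), ATF3 −0.55 (adjusted p = 0.00306), ASNS −0.23 (adjusted p = 0.0229) and SESN2 −0.47 (adjusted p = 0.00189), while ALDH1L2 had 0.35 (adjusted p = 0.00418) and SLC7A1 0.22 (adjusted p = 0.0432). Trends were estimated from the same counts and then taken as known, so these p-values leave out the error of the trend.

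**Figure D5:**
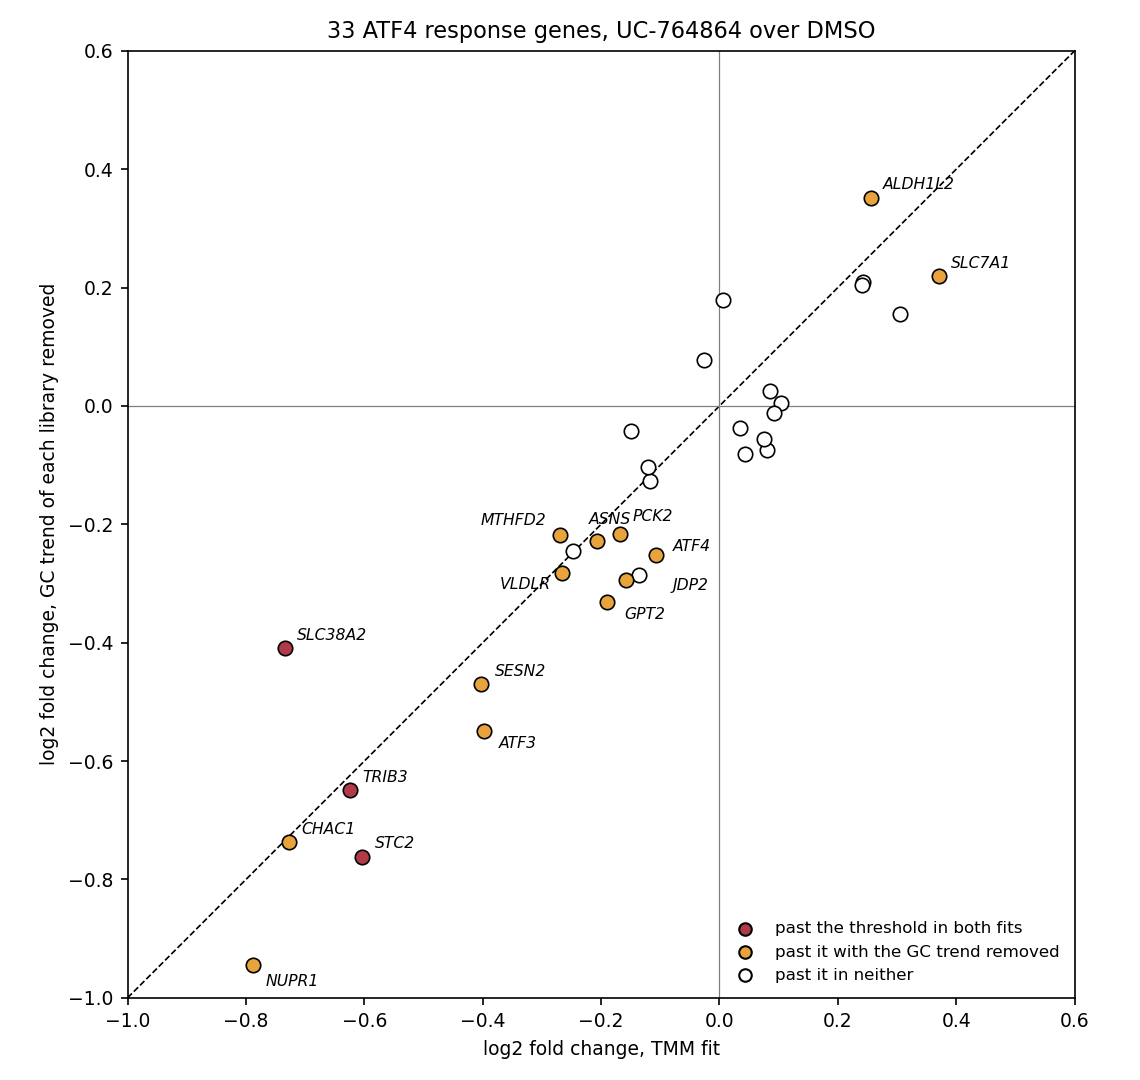
Log2 fold change of the 33 genes in the TMM fit (x axis) and with each library's GC trend removed (y axis), with the line of equal values dashed, red for genes past the threshold in both fits and orange for those past it with the trend removed. SLC38A2 moves most toward 0, at −0.73 and −0.41, and 13 genes are orange.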

How the data were processed

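Poly(A) RNA of 6 MOLM-13 libraries was sequenced in paired reads of 75 bp, per the labels' protocols. The authors deposited raw whole-number counts per gene, 1 column per library, and a table that gives each column its treatment but no replicate number. FastQC 0.11.7, HISAT2 2.0.5, featureCounts 1.5.2 and GRCh37 are named in the submitters' processing notes, without roles. Neither annotation release nor strand setting is given in the sources used here.

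Rows held by all libraries (52839 of 56638) were filtered with filterByExpr, scaled by TMM and tested with edgeR 4.0.16 (glmQLFit, glmQLFTest; R 4.3.3), treatment being the only term. An adjusted p under 0.05 (Benjamini-Hochberg, 13490 genes) was the threshold. SE is the size of the log2 fold change over the square root of F. Exon lengths (all annotated exons of a gene joined) and GC content came from GENCODE 29 (GRCh38), matched by symbol for 90.3% of tested genes. GC trends were removed by lowess offsets. DESeq2 1.42.0, RLE factors, library size only, no filter, all rows as deposited and leaving out libraries were alternatives.

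Members and lists were chosen with earlier results of these data known. Values in every library and full statistics were given to members past the threshold and to the member with the smallest p of each role group, and up to 4 genes of each related list were named in order of p. Beyond this rule, other members were added for their role, and LARS, SLC36A1, ALDH18A1, VEGFA, NDRG1, BBC3 and PSPHP1 after their values were seen. Counting floors cover counting error only, since reads carry no molecular identifiers.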

Additional observations from a re-analysis of the deposited data

How the results depend on the processing

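No paired analysis was possible because the columns of the count table carry no replicate numbers. With all rows as deposited, 22 genes were higher and 125 lower and 1 member was lower, and with the GC trend removed 2073 and 1954 genes and 2 and 14 members were. With library size only, 508 genes were higher and 1271 lower, against 690 and 1097 with TMM factors. Without a filter, 1676 genes were lower. Leaving out each library gave 62 to 1525 genes higher, 278 to 1729 lower, 0 to 3 members higher and 0 to 5 lower, the lowest without UDI0051 and the highest without UDI0055. Over the 33 genes and 13 alternatives, 371 values kept direction and side of the threshold, 21 passed newly, 9 were lost and 28 changed sign, all 28 for genes that did not pass. With the GC trend removed, the log2 fold change of EIF2AK3 was 0.078, PHGDH −0.081, PSPH −0.075, SHMT2 −0.011, SLC3A2 −0.056 and SLC1A5 −0.038. With library size only, PHGDH had −0.0034, SLC1A5 −0.010 and XPOT −0.040. Without UDI0052 and UDI0056, PHGDH had −0.0069, SLC1A5 −0.0093 and XPOT −0.049. XPOT had −0.013 with RLE factors and with DESeq2, −0.0033 with no filter and −0.016 with rows as deposited. Leaving out 1 library, DDIT3 ranged from −0.27 to 0.014, EIF2AK3 from −0.12 to 0.088, PHGDH from −0.040 to 0.11, SLC3A2 from −0.031 to 0.15, SLC1A5 from −0.065 to 0.19 and XPOT from −0.11 to 0.064. The cause of these shifts was not tested. With 3 libraries a group and 14 to 80 counts a library, NUPR1 and CHAC1 are the members whose depth limits precision most.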

Other observations

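EIF2S3, SLC38A5 and ADM2, of the related lists, lie in rows that UDI0055 does not hold, so their values stand outside the comparison and were not tested. EIF2S3, the gamma subunit of eIF2, stood at 345, 391 and 352 CPM in UDI0051, UDI0052 and UDI0053 (UC-764864) and at 323 and 338 CPM in UDI0054 and UDI0056 (DMSO). SLC38A5, a glutamine and serine transporter, stood at 126, 102 and 115 CPM in the UC-764864 libraries and at 91.1 and 73.4 CPM in the 2 DMSO libraries. ADM2, a secreted peptide counted among ATF4 targets, stood at 2.66, 2.78 and 3.42 CPM in the UC-764864 libraries and at 7.203 and 5.67 CPM in the 2 DMSO libraries.

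PSPH and its copy PSPHP1 differed in value. PSPHP1, named after its values were seen, stood at 11.99, 13.3 and 12.9 CPM in UC-764864 libraries and at 21.3, 18.8 and 19.0 CPM in DMSO libraries, a log2 fold change of −0.63 ± 0.13 (edgeR adjusted p = 0.013; 0.000566 to 0.0842 over the alternatives), whereas PSPH had 0.081 ± 0.11 (adjusted p = 0.655). The difference between the copies was not tested, and how counting assigned reads that match both is not known.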
